A study of Rattus norvegicus with 19 samples.

Results

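The ABC drug efflux pumps are membrane proteins that use ATP to carry drugs, toxins and conjugated metabolites out of cells. Their members were chosen by name, as the 8 genes Abcb1a, Abcb1b, Abcb4, Abcc1, Abcc2, Abcc3, Abcc4 and Abcg2, and every array probe carrying 1 of those names was taken. This gave 12 probes of 45598 probe names on the array, and all 8 genes were among the 24217 genes tested. The family was selected on the known rise of Abcb1b in diabetic against control kidneys, so that comparison, and the one that shares its control arrays, are given here as a description without p-values.

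RNA of renal cortex was measured in male Crl:CD (SD) rats, with 1 Cy3-labelled array per rat. The 7 DKD+enarodustat rats received an intravenous injection of streptozotocin, a toxin of insulin-producing beta cells, at 65 mg/kg, and then feed containing 0.01% (w/w) enarodustat, which stabilises hypoxia-inducible factor (HIF) by blocking its prolyl hydroxylases. The 7 DKD rats received the same injection and normal feed, and the 5 Sham rats received vehicle and normal feed. The injection preceded grouping by 7 days. The DKD+enarodustat and DKD rats had been chosen to match in body weight and blood glucose, and their kidneys, like those of Sham rats, were collected 14 days after grouping. Both diabetic groups share the streptozotocin injection, so high glucose and other actions of the toxin on the kidney cannot be told apart in a comparison with Sham.

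In the kidney, efflux pumps of the apical membrane of proximal tubule cells move drugs and conjugates into the urine, and pumps of the basolateral membrane move them back towards the blood. Rodents encode P-glycoprotein, the pump that confers multidrug resistance on tumour cells, by a pair of genes, Abcb1a and Abcb1b. Abcc2 and Abcc4 (MRP2 and MRP4) are apical pumps of the renal proximal tubule for organic anions and conjugates. Abcc1 and Abcc3 (MRP1 and MRP3) are basolateral pumps for glutathione and glucuronide conjugates. Abcg2, the breast cancer resistance protein, is an apical pump that carries urate and sulfated compounds, and Abcb4 moves phosphatidylcholine across the bile-facing membrane of hepatocytes and is included as the neighbour of the P-glycoprotein genes.

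Abcb1b, Abcb1a and Abcb4 lie beside each other on chromosome 4 in the RefSeq annotation of GRCr8, and their array probes also lie in 1 stretch of chromosome 4 on rn4, the build used in the files. The first 30 bases of 3 of the 60-base probes are shown because the results turn on telling the P-glycoprotein genes apart. The Abcb1b probe that stood for the gene is at chr4:21912180-21912239, its other probe at chr4:21862438-21862497 and the Abcb1a probe at chr4:21795859-21795918, all on the plus strand of rn4.
Abcb1b, representative probe: tctcgatggttcaggctggagcaaagcgct
Abcb1b, other probe: gaattgtaacttgttttcccttctctttct
Abcb1a probe: gtaaatatttgataatatatacttttattt
The longest run of bases that any 1 of the 12 probes shared with a probe of another member was 10, and the accessions listed for each probe named its own gene alone. The files do not give exon, intron or UTR positions for these probes.

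Upstream sequence is shown for Abcb1b and Abcc2, the members whose DKD and Sham arrays did not overlap. It was taken from the RefSeq promoter table of GRCr8, which holds 7 of the 8 members, without Abcc3. Capitals mark matches to CCAAT and to GGGCGG, the GC box, on either strand, so that ATTGG and CCGCCC are matches on the other strand. For Abcb1b the 123 bases outside the annotated gene are printed, from chr4:26280157-26280279 (minus strand). For Abcc2 the full 250 bases before the start are printed, from chr1:252613625-252613874 (plus strand).
Abcb1b: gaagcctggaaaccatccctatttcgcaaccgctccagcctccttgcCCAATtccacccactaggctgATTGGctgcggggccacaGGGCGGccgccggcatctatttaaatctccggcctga
Abcc2: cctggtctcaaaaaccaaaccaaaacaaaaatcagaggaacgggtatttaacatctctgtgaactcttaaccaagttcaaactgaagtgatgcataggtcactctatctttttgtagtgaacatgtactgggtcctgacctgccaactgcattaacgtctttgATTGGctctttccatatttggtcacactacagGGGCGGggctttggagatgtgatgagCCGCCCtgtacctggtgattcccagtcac
Motif positions are counted from the start given in the promoter table, which for Abcb1b lies inside the annotated gene. Of its 250-base window, 123 bases lay outside the gene and 127 inside. In that window Abcb1b held 2 CCAAT boxes, at 203 and 182 bases before this start, and 1 GC box at 164 bases. Abcc2 held 1 CCAAT box at 87 bases and 2 GC boxes at 55 and 29 bases, and also 2 matches to AGGTCA, the half-site of many nuclear receptors, at 155 and 115 bases. The windows differ in how much of them is upstream sequence. For Abcb1a, Abcb4, Abcc4 and Abcg2 all 250 bases lay inside the annotated gene, for Abcc1 64 did and for Abcc2 0. The counts below therefore do not compare upstream sequence alone. A CCAAT box was present in 34% of the 33469 promoters of the same length and in no member other than Abcb1b and Abcc2. A GC box was present in 30.5% of all promoters and in all 7 members with an entry, and AGGTCA in 14.1% of all promoters and in Abcc2 alone of these 7. The hypoxia response element cores ACGTG and GCGTG were present in 16.6% and 25.9% of all promoters. ACGTG was found in Abcb4, and GCGTG in Abcb4, Abcc1 and Abcc4. The antioxidant response element core TGACNNNGC, present in 10.1% of all promoters, was found in none of the 7. TGANTCA, the AP-1 site, was present in 6.34% of all promoters and in Abcb1a alone of the 7. These motifs were searched on both strands, and a match is a description of the letters only.

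All values below are log2 of the array intensity with the 75th percentile of each array subtracted, so 0 is that percentile. Differences between groups are on the log2 scale with the standard error of the fit, and a gene was called where its p, adjusted over all genes, was under 0.05. In the comparisons with Sham, a call of a pump is part of the description. Levels are compared between arrays for 1 probe, except that the marker sums below add the linear levels of several genes. Bright probes weigh most in those sums. A probe called low or dim is one far below 0 on this scale. The share of probes well above background was 54.4 to 62.9% in DKD+enarodustat, 54.7 to 67.2% in DKD and 61.0 to 66.8% in Sham arrays. All 10 proximal tubule markers were above background on all 19 arrays. Each of the 3 slides held all groups, but the row on the slide was tied to the group. All 7 DKD+enarodustat arrays lay in row 2, DKD had 5 arrays in row 1 and replicates 2 and 4 in row 2, and all 5 Sham arrays lay in row 1.

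Abcb1b had by far the widest difference of the family. Its level in DKD+enarodustat arrays had a lowest value of -0.08, a median of 0.74 and a highest value of 0.98. In DKD arrays these were 0.33, 0.97 and 2.10. The 5 Sham arrays had -4.59, -3.93, -3.02, -3.56 and -2.52. Every array of both diabetic groups lay above every Sham array, and the gap between the lowest diabetic and the highest Sham array was wider than the range within any group. The difference of DKD over Sham was 4.61 ± 0.36, which is 24.4-fold, and it ranked at position 3 of all genes by size of rise. The other Abcb1b probe gave 3.47 ± 0.37, and the probes correlated at 0.936 over the 19 arrays. That probe was well above background on 6 of 7 DKD+enarodustat, 7 of 7 DKD and 2 of 5 Sham arrays. The size differed between treatments of the values: it was 3.41 in the authors' value table, whose processing is not given in the sources used here, 3.89 when scanner values were normexp-corrected and quantile-normalised, and 4.61 with quantile normalisation of the processed intensity alone. In bulk cortex, more RNA per cell and more cells of a type that carries the RNA cannot be told apart.

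**Figure D1:**
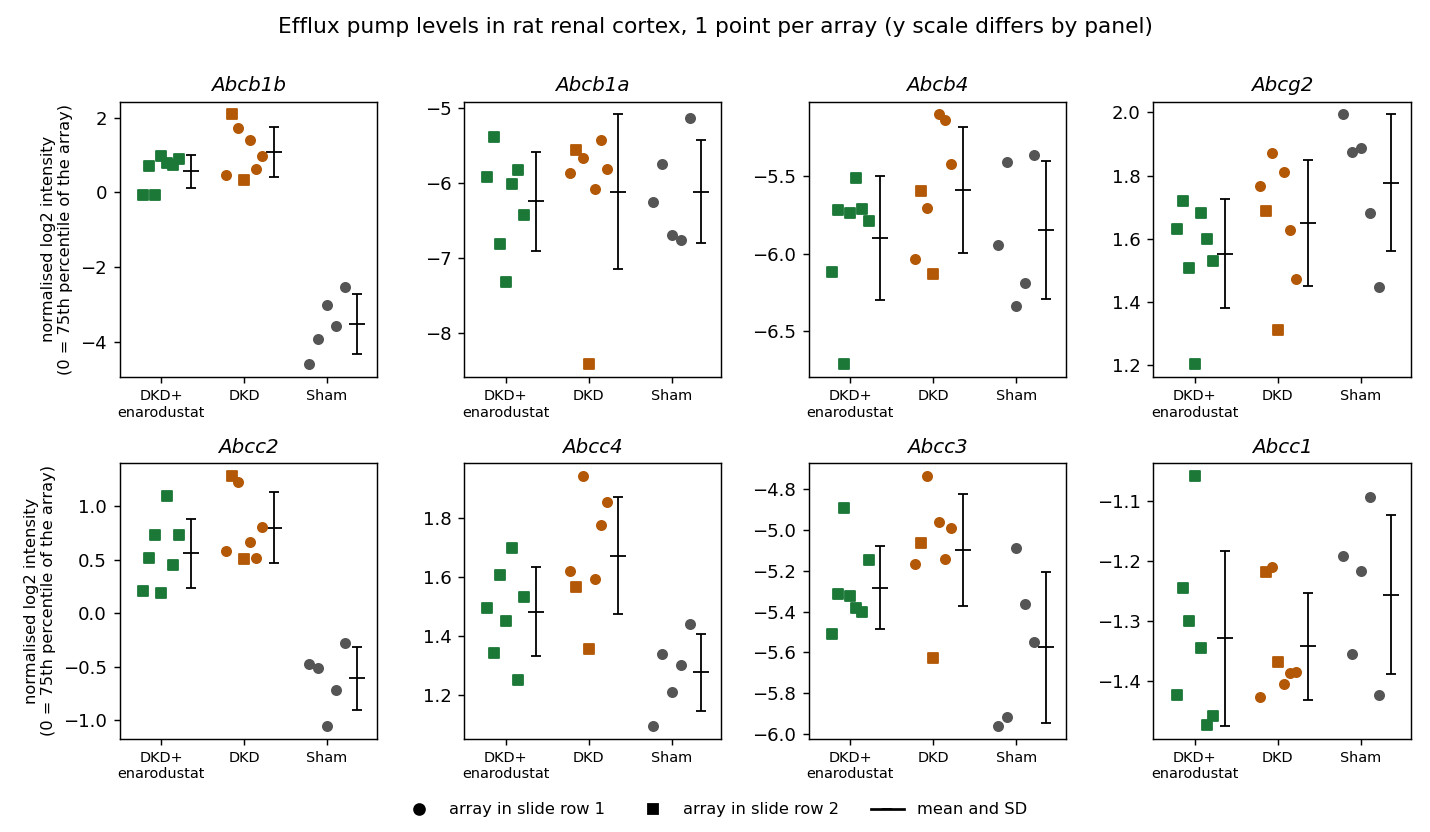
Normalised log2 intensity (0 is the array's 75th percentile) of the 8 efflux pumps in each DKD+enarodustat (n = 7), DKD (n = 7) and Sham (n = 5) array, with group mean and SD; circles are arrays in slide row 1, squares arrays in row 2. Abcb1b and Abcc2 have no overlap between the diabetic groups and Sham, while the groups of the other 6 pumps overlap.

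Abcb1a, the partner gene of P-glycoprotein, lay at closely similar means in all groups. Its level in DKD+enarodustat arrays ran from -7.33 through a median of -6.02 to -5.38. DKD arrays ran from -8.42 through -5.81 to -5.43, and Sham arrays had -6.25, -5.74, -6.70, -6.77 and -5.14. All 3 groups overlapped. The difference of DKD over Sham was 0.00 ± 0.46, with a 95% interval of -0.97 to 0.97. The interval leaves room for a change of up to about that size in either direction. Abcb1a was well above background on 5 of 7 DKD+enarodustat, 6 of 7 DKD and 5 of 5 Sham arrays. The lowest value belonged to DKD replicate 4, which was not well above background, and without that array the difference was 0.39. Whether the DKD-minus-Sham difference of Abcb1b exceeds that of Abcb1a was not tested.

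Abcc2, the apical pump for conjugates, was also higher in every diabetic array than in every Sham array. DKD+enarodustat arrays had a lowest value of 0.19, a median of 0.51 and a highest value of 1.09. DKD arrays had 0.50, 0.66 and 1.28. Sham arrays had -0.48, -0.51, -1.05, -0.72 and -0.28. The difference of DKD over Sham was 1.41 ± 0.18, or 2.65-fold. It lay between 1.15 and 1.75 under all 30 other settings.

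Abcc4, an apical pump that also exports cyclic nucleotides, differed less, and its groups overlapped. DKD+enarodustat arrays had a lowest value of 1.25, a median of 1.5 and a highest value of 1.70. DKD arrays had 1.36, 1.62 and 1.94, and Sham arrays 1.09, 1.34, 1.21, 1.30 and 1.44. The lowest DKD array lay within the Sham range and the other 6 lay above it. The difference of DKD over Sham was 0.40 ± 0.10, or 1.32-fold, and the other Abcc4 probe, which correlated with it at 0.948, gave 0.40 ± 0.10.

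Abcc3, a basolateral pump for glucuronides, was called with a DKD-over-Sham difference of 0.48 ± 0.16. DKD+enarodustat arrays had a lowest value of -5.51, a median of -5.32 and a highest value of -4.89. DKD arrays had -5.63, -5.06 and -4.73, and Sham arrays -5.96, -5.92, -5.09, -5.36 and -5.55. The groups overlapped in every pair. The Abcc3 signal was low, though well above background on every array. The call held in 11 of 30 other settings. With 1 array left out it held in 2 of 12 cases, without Sham replicate 3 (0.60) and without DKD replicate 4 (0.57). It was lost when any other 1 of these 12 arrays was left out: Sham replicates 1 (0.38), 2 (0.39), 4 (0.53) and 5 (0.48), and DKD replicates 1 (0.49), 2 (0.47), 3 (0.42), 5 (0.45), 6 (0.49) and 7 (0.46). The difference was 0.11 with normexp-corrected, quantile-normalised values and 0.12 in the table deposited by the authors, both without a call.

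Abcg2 and Abcc1, both called in no comparison, showed small differences. Abcg2 had a lowest value of 1.20, a median of 1.60 and a highest value of 1.72 in DKD+enarodustat arrays, and 1.31, 1.69 and 1.87 in DKD arrays. Sham arrays had 1.99, 1.87, 1.89, 1.68 and 1.45. The difference of DKD over Sham was -0.13 ± 0.11, with an interval of -0.37 to 0.11. Abcc1, the basolateral pump for glutathione conjugates, spanned -1.47 to -1.06 in DKD+enarodustat, -1.43 to -1.21 in DKD and -1.42 to -1.09 in Sham arrays. Its difference of DKD over Sham was -0.09 ± 0.08, with an interval of -0.25 to 0.08, and its other probe was well above background on 0 of 7 DKD+enarodustat, 3 of 7 DKD and 2 of 5 Sham arrays.

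Abcb4, the phosphatidylcholine transporter, was likewise not called. Its arrays spanned -6.71 to -5.51 in DKD+enarodustat, -6.13 to -5.10 in DKD and -6.34 to -5.37 in Sham. The difference of DKD over Sham was 0.26 ± 0.23, with an interval of -0.23 to 0.75. The other Abcb4 probe gave 0.56 ± 0.32 and correlated with it at 0.562.

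In DKD against Sham, 4 of the 8 pumps were called, all of them higher (Abcb1b, Abcc2, Abcc3 and Abcc4). Of all genes tested, 17.1% were called in either direction and 8.02% as higher. Since the family was chosen with this comparison known, nothing is read from that difference in shares. The groups did not overlap for 2 pumps, Abcb1b and Abcc2, and for 10.7% of all genes. The median difference of the 8 pumps was 0.33, against -0.02 for all genes. Among the 7 DKD arrays the 5 that share row 1 with all Sham arrays gave nearly the same differences, 4.56 for Abcb1b, 1.37 for Abcc2, 0.58 for Abcc3 and 0.48 for Abcc4. Within slide 1 and within slide 2, each with 2 arrays per group, Abcb1b differed by 5.54 and 4.32, Abcc2 by 1.43 and 1.75, Abcc4 by 0.38 and 0.40, and Abcc3 by 0.82 and 0.05. No pump was called within a slide. Slide 3 held 1 Sham array and gave no value of its own.

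Marker genes of several cell types moved in the same comparison. Of 10 proximal tubule markers, 2 were higher and 6 lower in DKD than in Sham, and their summed level was 253 to 295 in DKD and 336 to 360 in Sham arrays, in units of the array's 75th percentile. Of 10 tubular injury markers, 7 were higher and 1 lower, with sums of 18.3 to 49.0 in DKD and 8.50 to 11.7 in Sham arrays. Of 8 adipocyte markers, 4 were higher and 0 lower, with sums of 29.2 to 59.2 in DKD and 12.02 to 20.4 in Sham arrays. Adrb3 was above background on 5, Lep on 7 and Retn on 12 of 19 arrays. Pck1 in this list is not specific to adipocytes, and its part of the sums was not separated. Of 4 hepatocyte markers tested, 2 were higher and 0 lower. Their sums were 4.52 to 6.29 in DKD and 2.50 to 3.50 in Sham arrays. Alb was above background on 8 and Serpina1 on 10 of 19 arrays. The hepatocyte markers Apoa1, Ttr and Tat were above background on too few arrays to be tested. Of 6 thick ascending limb markers, 0 were higher and 3 lower, with sums of 56.9 to 109.6 in DKD and 121.2 to 145.3 in Sham arrays. Of 7 markers of the distal tubule and collecting duct, 3 were higher and 0 lower, with sums of 54.2 to 67.7 in DKD and 41.9 to 49.6 in Sham arrays. Of 5 podocyte markers, 0 were higher and 2 lower, with sums of 7.44 to 10.1 in DKD and 10.3 to 12.6 in Sham arrays. The sums of these 3 nephron lists did not overlap between DKD and Sham. The leukocyte list had 2 of 9 markers higher and 0 lower, with sums of 31.8 to 49.9 in DKD and 28.1 to 35.9 in Sham arrays. Cd79b was above background on 5 and Cd3e on 14 of 19 arrays. The endothelial list had 0 of 10 markers called by limma. The erythroid list had 0 of 6 called, with sums of 14.1 to 87.1 in DKD and 19.9 to 34.9 in Sham arrays. DKD+enarodustat arrays had sums of 235 to 300 for the proximal tubule and 14.4 to 51.1 for tubular injury. The hepatocyte sum was 7.68 to 16.03 in DKD+enarodustat arrays, above every DKD and Sham array. In the fit without slide row 1 of its 4 markers, Apoc3, was higher in DKD+enarodustat than in DKD. Slide row, which is tied to group, was not taken into account in the sums either. The part of these shifts in the pump differences was not tested.

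Enarodustat did not move any pump past the threshold. In DKD+enarodustat against DKD, 0 of 8 pumps were called by limma, against 2.00% of all genes, and 0 of 8 had an unadjusted p under 0.05 with the probe that stood for the gene. The difference was negative for 7 pumps and positive for 1, with a median of -0.19 against -0.02 for all genes. With slide row as a covariate this split was 4 negative (Abcb1b, Abcb4, Abcc1 and Abcc2) and 4 positive (Abcb1a, Abcc3, Abcc4 and Abcg2). DKD+enarodustat and DKD arrays overlapped for all 8, and failed to overlap for 1.25% of all genes. This comparison uses the same DKD arrays as DKD against Sham, so an array that is high by chance in DKD moves both.

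**Figure D2:**
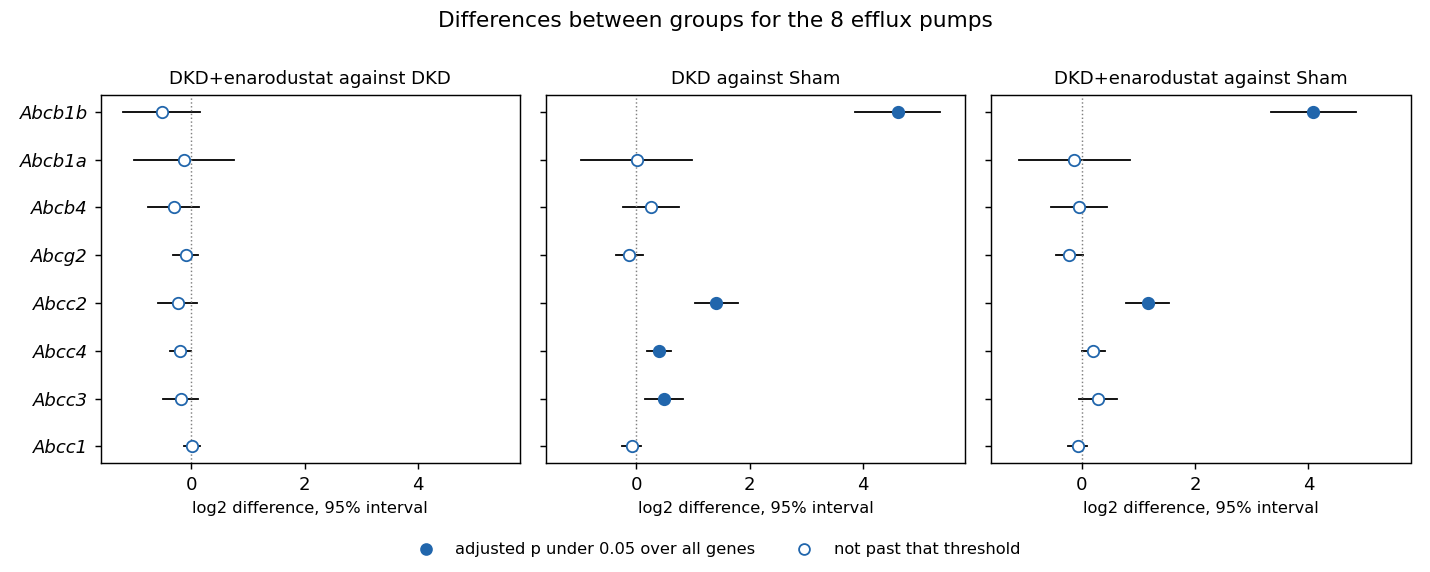
Log2 difference with its 95% interval for each of the 8 pumps in DKD+enarodustat against DKD, DKD against Sham and DKD+enarodustat against Sham; filled points passed an adjusted p of 0.05 over all genes. No pump is filled in the left panel, 4 are filled in the middle panel and 2 (Abcb1b and Abcc2) in the right panel.

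Abcb1b averaged 0.56 ± 0.44 in DKD+enarodustat and 1.09 ± 0.67 in DKD arrays (SD, n = 7 each), and the difference of -0.52 ± 0.32 had an interval of -1.21 to 0.16 (adjusted p = 0.533, limma). Its other probe gave -0.74 ± 0.34, with an unadjusted p of 0.0441 and an adjusted p of 0.340 in limma over 30258 probes. Abcc2 averaged 0.56 ± 0.32 in DKD+enarodustat and 0.80 ± 0.33 in DKD arrays (SD), a difference of -0.24 ± 0.16 (interval -0.58 to 0.11, adjusted p = 0.603, limma). The intervals of this fit, which leaves out slide row, reach -1.21 for Abcb1b and -0.58 for Abcc2. They leave room for a lower level under the drug of up to that size. With slide row as a covariate the differences were -0.65 ± 0.50 for Abcb1b and -0.33 ± 0.25 for Abcc2. Those wider standard errors leave room for a larger change.

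Abcc4 had the smallest p of the family, with a difference of -0.19 ± 0.09 and an interval of -0.38 to 0.00 (unadjusted p = 0.0510, adjusted p = 0.368, limma). Its other probe gave -0.23 ± 0.09 (unadjusted p = 0.0210, adjusted p = 0.243, limma). Row on the slide moved with this value: with the row as a covariate, which compares the 7 DKD+enarodustat arrays with the 2 DKD arrays of row 2, the Abcc4 difference was 0.02. On that footing Abcb1b differed by -0.65, Abcc2 by -0.33 and Abcc3 by 0.06. Abcc3 in the main fit differed by -0.18 ± 0.15 (interval -0.49 to 0.12, adjusted p = 0.667, limma).

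For the other 4 pumps the DKD+enarodustat-over-DKD difference was -0.31 ± 0.21 for Abcb4, -0.13 ± 0.42 for Abcb1a, 0.01 ± 0.07 for Abcc1 and -0.10 ± 0.10 for Abcg2. Their adjusted p-values in limma were 0.595, 0.967, 0.984 and 0.7999 in that order. The interval was narrow for Abcc1, -0.14 to 0.16, and wide for Abcb1a, -1.02 to 0.76. Without DKD replicate 4 the Abcb1a difference was -0.51. With slide row as a covariate the differences were -0.03 for Abcb4, 0.74 for Abcb1a, -0.04 for Abcc1 and 0.05 for Abcg2, none of them called. The 0.74 of Abcb1a rests on the 2 DKD arrays of row 2. These are replicate 2, at -5.56, and replicate 4, at -8.42 and not well above background, beside a DKD+enarodustat mean of -6.25.

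Among 17 HIF targets, measured in the same arrays, 10 were higher and 0 lower in DKD+enarodustat than in DKD, with a median difference of 0.66. Of all genes, 2.00% were called in either direction. These values come from the fit without slide row, and row is tied to group. With slide row as a covariate 84 genes were called in this comparison, against 485 in that fit. Values of the HIF targets with that covariate are not given here. Examples were Ldha, lactate dehydrogenase A, at 1.12 ± 0.08, and Aldoc, aldolase C, at 1.54 ± 0.13. Mgarp, a mitochondrial protein, differed by 3.70 ± 0.26 and was above background on 7 of 7 DKD+enarodustat and 3 of 7 DKD arrays.

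Abcb1b and Abcc2 were also higher in the treated diabetic kidneys than in Sham. DKD+enarodustat exceeded Sham by 4.09 ± 0.36 for Abcb1b (16.99-fold) and by 1.17 ± 0.18 for Abcc2 (2.25-fold), without overlap of the groups in either case, as for 14.4% of all genes. These 2 of 8 pumps were called, both higher, where 26.1% of all genes were called in either direction and 10% as higher. Nothing is read from that, since the Sham arrays are those of the comparison the family was chosen on. The remaining differences over Sham were 0.29 ± 0.16 for Abcc3, 0.21 ± 0.10 for Abcc4, -0.05 ± 0.23 for Abcb4, -0.13 ± 0.46 for Abcb1a, -0.07 ± 0.08 for Abcc1 and -0.22 ± 0.11 for Abcg2. No DKD+enarodustat array shared a slide row with a Sham array. With row as a covariate Abcb1b was still called while Abcc2, at 1.03, was not.

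Other genes of the ABC family were set beside the pumps. They were listed by family name and not by what they carry. The list may hold genes that export drugs or that are not transporters. Of 42 on a fixed list, 35 were tested. In DKD against Sham 6 were higher and 2 lower, with a median of -0.01. The 3 with the smallest adjusted p were Abcb11, the bile salt export pump of hepatocytes, at 2.91 ± 0.26, Cftr, an epithelial chloride channel, at -3.39 ± 0.39, and Abca8a at 1.31 ± 0.18. Cftr was above background on 4 of 7 DKD and 5 of 5 Sham arrays. In DKD+enarodustat against DKD none of the 35 was called by limma, with a median of -0.11.

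**Figure D3:**
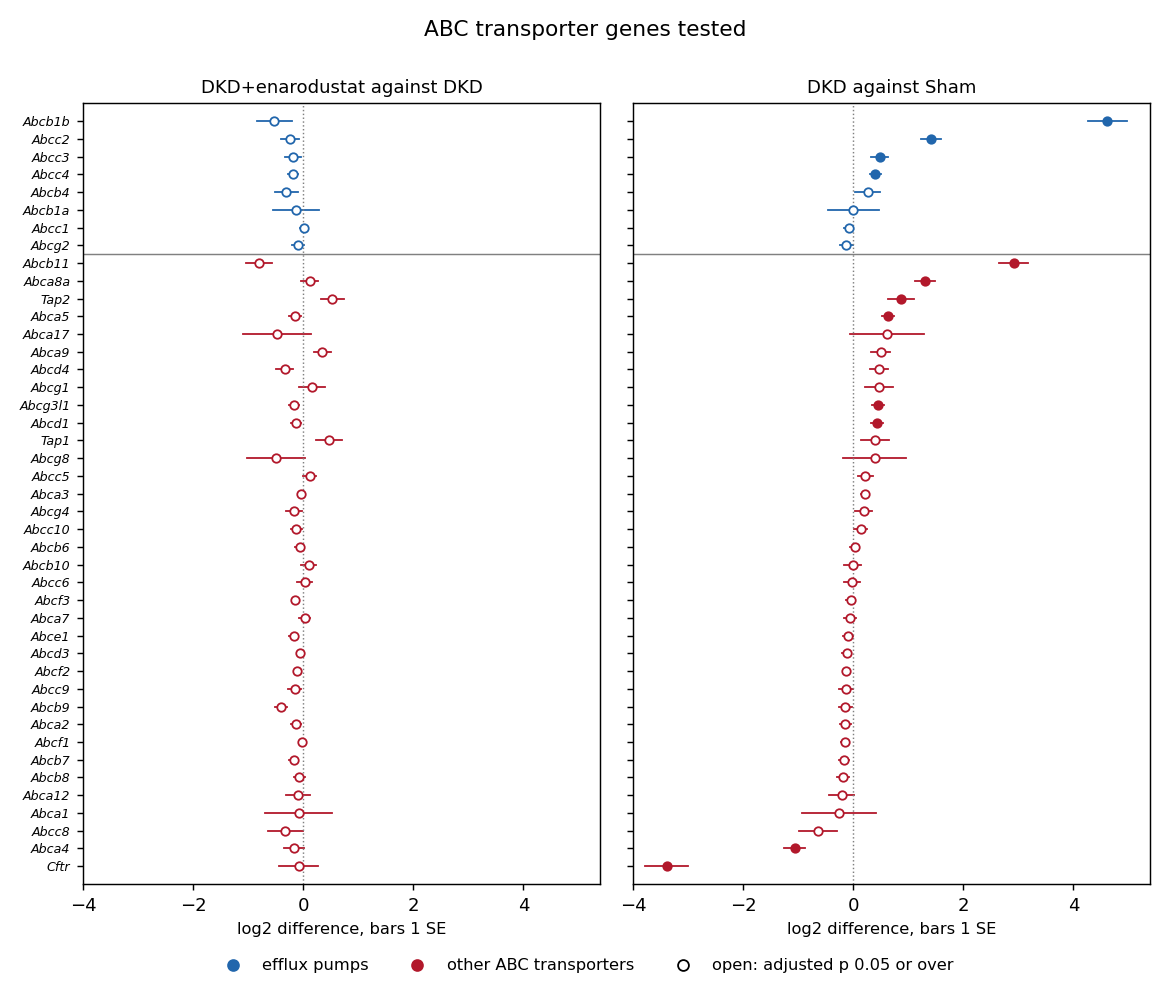
Log2 difference with 1 SE for the 8 efflux pumps (blue) and the 35 other ABC family genes tested (red, labelled as other ABC transporters). Panels show DKD+enarodustat against DKD and DKD against Sham, and filled points passed an adjusted p of 0.05. Filled points are absent on the left, and on the right 4 pumps and 8 of the other genes are filled.

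Transporters of drugs and organic ions outside the ABC family were counted too. The list mixes uptake and proton-antiporter genes, so its counts do not describe uptake alone. Of 17 uptake and proton-antiporter genes tested, 2 were higher and 6 lower in DKD than in Sham, with a median of -0.19. Slc22a2, the basolateral organic cation transporter OCT2, differed by -2.00 ± 0.22, Slco1a1, an organic anion transporter, by -4.60 ± 0.56, and Slco1a4 by -4.45 ± 0.59. Slco1a4 was above background on 6 of 7 DKD and 5 of 5 Sham arrays. The median difference of all genes was -0.02.

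Enzymes that make the conjugates exported by the Abcc pumps were counted as well. Of 20 glutathione and conjugation enzymes, 8 were higher and 1 lower in DKD than in Sham, with a median of 0.66. Gsta3, a glutathione S-transferase, differed by 1.76 ± 0.22, Sult1c3, a sulfotransferase, by 2.32 ± 0.32, and Tpmt, thiopurine methyltransferase, by -0.90 ± 0.13. None of the 20 was called in DKD+enarodustat against DKD.

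Pathways known from other work to control efflux pump genes were described by their target genes, with the pumps themselves left out of the lists. Of 20 NRF2 targets, 8 were higher and 3 lower in DKD than in Sham, with a median of 0.24, among them Gsta3, Ephx1, an epoxide hydrolase, at 1.51 ± 0.21 and Srxn1, sulfiredoxin, at 1.32 ± 0.20. Of 19 PPAR-alpha targets, 15 were higher and 1 lower, with a median of 0.83 and Angptl4, an inhibitor of lipoprotein lipase, at 3.63 ± 0.32. Of 8 PXR and CAR targets tested of 14 listed, 3 were higher and 0 lower, with a median of 0.39, among them Ces2 at 1.74 ± 0.19 and Por, the electron donor of cytochromes P450, at 0.59 ± 0.13. Of 5 AHR targets tested of 7 listed, 1 was higher, Nfe2l2 (the gene of NRF2), and 1 lower. Cyp1a1 and Cyp1a2 were listed but not tested. Of 17 HIF targets, 4 were higher and 0 lower, with a median of 0.03. Some genes stand in more than 1 list, such as Gsta3.

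In DKD+enarodustat against DKD, 1 NRF2 target was lower, Txnrd1, thioredoxin reductase, at -0.53 ± 0.10 (adjusted p = 0.00453, limma). This Txnrd1 value, too, comes from the fit without slide row. No PPAR-alpha, PXR and CAR or AHR target was called.

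Of the transcription factors behind these pathways, Nr1i2 (PXR) at 0.31 ± 0.07 and Nfe2l2 (NRF2) at 0.35 ± 0.09 were called as higher in DKD than in Sham. Ppara at 0.35 ± 0.20 and Ahr at -0.24 ± 0.21 were not called. Under enarodustat none of these 4 was called against DKD, with differences of 0.07 ± 0.06 for Nr1i2, -0.17 ± 0.09 for Nfe2l2, 0.47 ± 0.18 for Ppara and -0.28 ± 0.19 for Ahr. Ahr was above background on 2 of 7 DKD+enarodustat, 5 of 7 DKD and 5 of 5 Sham arrays.

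The 5 genes whose levels were most alike to those of Abcb1b over the 19 arrays were Plk2, Ccng1, Rps19, Lrrcc1 and Thyn1, with Pearson correlations of 0.962, 0.959, 0.946, 0.931 and 0.929. The arrays fall into a Sham cluster and a diabetic cluster, so these values mostly restate the group difference. Of deviations from the group means, the correlations were 0.569, 0.553, 0.542, 0.475 and 0.431. The arrays share slides and normalisation, and no p is attached. Plk2, a stress-induced kinase, had a lowest value of -3.71, a median of -2.98 and a highest value of -2.56 in DKD+enarodustat arrays, -3.34, -2.94 and -2.71 in DKD arrays, and spanned -5.45 to -5.00 in Sham arrays. Ccng1, cyclin G1, had 0.93, 1.18 and 1.67 in DKD+enarodustat arrays, 1.23, 1.44 and 1.71 in DKD arrays, and spanned -0.14 to 0.11 in Sham arrays. For both genes every diabetic array lay above every Sham array, as for Abcb1b, and DKD exceeded Sham by 2.28 for Plk2 and by 1.49 for Ccng1. Rps19, a ribosomal protein, was alike in pattern but moved far less, by 0.45 in DKD over Sham.

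**Figure D4:**
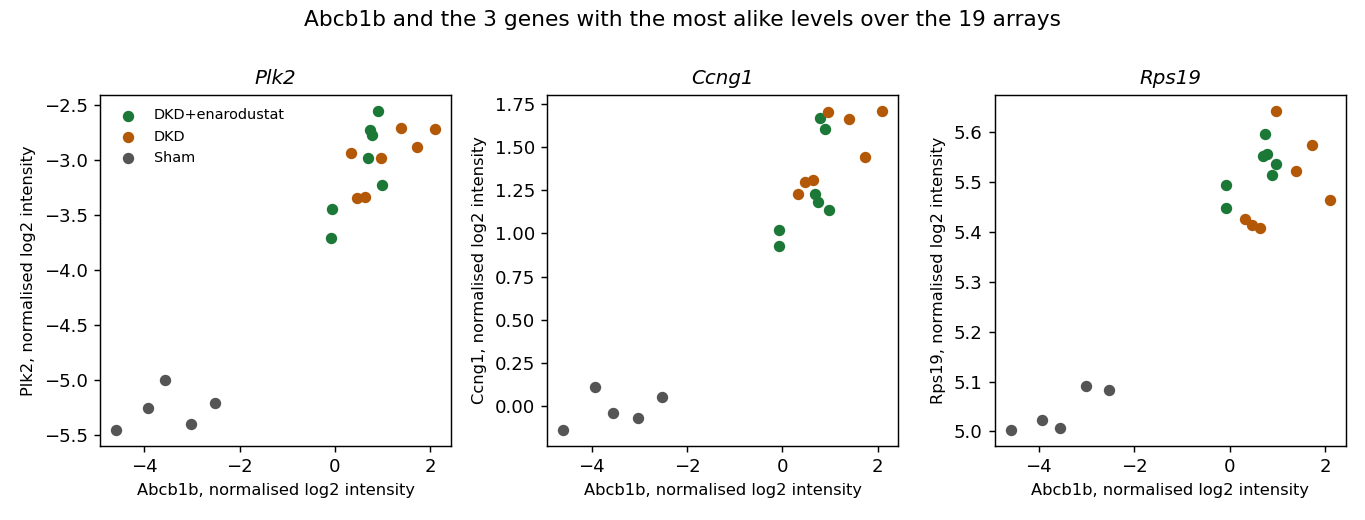
Normalised log2 intensity of Plk2, Ccng1 and Rps19 against that of Abcb1b, 1 point per array, in DKD+enarodustat (n = 7), DKD (n = 7) and Sham (n = 5). The Sham arrays form a cluster at low values in every panel, apart from a cluster of all 14 diabetic arrays.

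Among the pumps themselves, the levels of Abcb1b and Abcc2 had the highest Pearson correlation over the 19 arrays, 0.903, which again mostly restates the group difference. For deviations from group means this pair had 0.390, lower than Abcb1a with Abcb4, Abcb1b with Abcc3 (0.513), Abcc3 with Abcc4 (0.483) and some other pairs. Abcb1b and Abcb1a correlated at 0.0657, and at 0.321 within groups. Abcb1a and Abcb4, both dim, correlated at 0.557, and at 0.575 within groups. These are descriptions of 19 arrays that fall into clusters.

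The called differences of Abcb1b, Abcc2 and Abcc4 in DKD against Sham kept their sign under every other normalisation, filter, block and left-out array that was run. That of Abcc3 did as well but came close to 0. The family was chosen on this comparison in these same arrays, so the kept signs describe the processing and give no separate support. In DKD+enarodustat against DKD none of these 4 was called in any setting, and Abcc2, Abcc3 and Abcc4 crossed 0 in some.

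**Figure D5:**
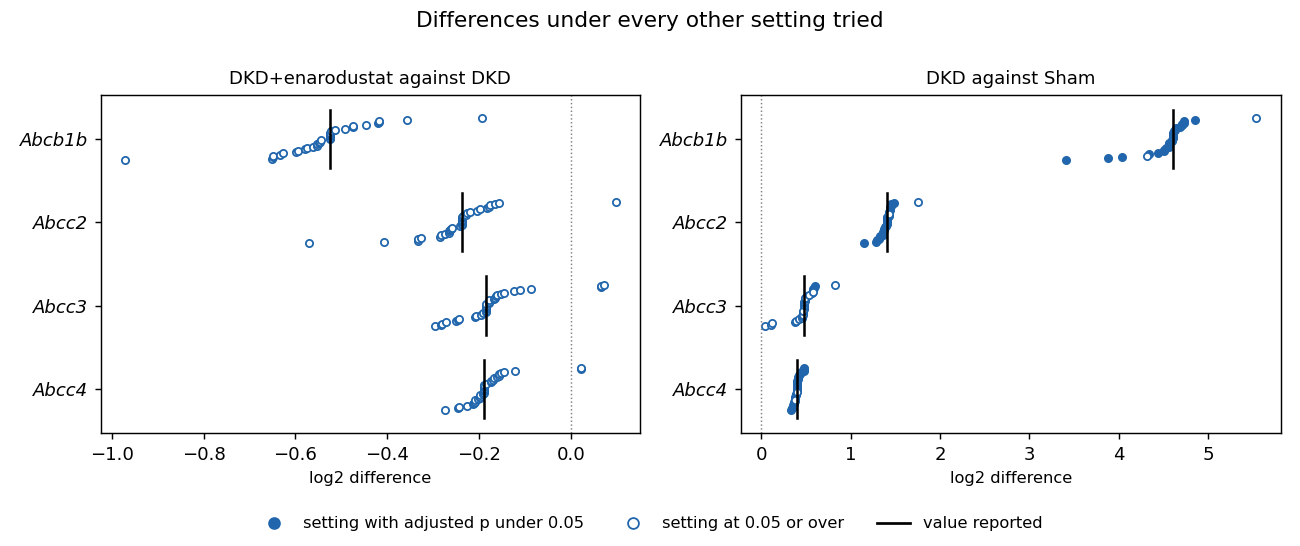
Log2 differences of Abcb1b, Abcc2, Abcc3 and Abcc4 in DKD+enarodustat against DKD and in DKD against Sham under every other setting tried, with the reported value as a black line; open points are settings with an adjusted p of 0.05 or over. In DKD against Sham Abcb1b lies between 3.41 and 5.54 and Abcc4 between 0.33 and 0.48, while Abcc3 reaches 0.05.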

How the data were processed

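The labels give 1 single-colour Agilent array for each of 19 rats, grouped as labelled. Spot intensity in the deposited scanner files came from Agilent Feature Extraction 11.5.1.1 according to the submitters' processing notes, which also name limma. Per the file headers, this software subtracted background from the processed intensity and detrended it, array by array. A second deposited table holds log2 values of the authors for 22739 probes, with column medians of 8.13 to 8.21. Its method and centring are not stated, and its columns had correlations of 0.9973 to 0.9993 with scanner values after normexp and quantile normalisation. It holds no Abcb1a or Abcb4 probe.

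Log2 of the processed intensity was taken, the 75th percentile of each array subtracted, outlier spots left out and spots of 1 probe averaged. Probes well above background on at least 5 arrays were kept, probes were named through RefSeq accessions of GRCr8 where possible, and a gene was represented by its brightest kept probe on average. Per the file headers, probe positions refer to rn4. A single fit of the 3 groups was made in R 4.3.3 with limma 3.58.1 (lmFit, eBayes, no covariate, 16 residual degrees of freedom), with two-sided p-values adjusted by Benjamini-Hochberg over 24217 genes within each comparison and a threshold of 0.05. The number of arrays limits the precision. The script was tested on simulated data.

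The members and gene lists were chosen with earlier results of these data known. Members were named with all probes, listed genes as up to 3 per list with the smallest adjusted p past the threshold in DKD against Sham or in DKD+enarodustat against DKD, with 4 regulators and the 5 genes most alike to Abcb1b fixed. A further regulator and its list of target genes are not reported here.

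Replicate numbers are shared by the groups in the labels. Same-numbered arrays deviated together in every pair, with correlations of 0.133 to 0.594 over 5 pairs for DKD against Sham, 0.142 to 0.419 over 7 pairs for DKD+enarodustat against DKD and 0.136 to 0.472 over 5 pairs for DKD+enarodustat against Sham. The pairing comes from these data, and the numbers follow the slides, which held 41.5% of the variance within groups. Alternatives changed the background correction, normalisation, probe filter, choice of probe, slide, slide row, replicate block, array weights and the arrays left out.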

Additional observations from a re-analysis of the deposited data

Results flagged for a closer look

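Abcb1a in DKD replicate 4 was at -8.42, far below the other 6 DKD arrays, which spanned -6.08 to -5.43. It was not well above background there. Abcg2 in DKD+enarodustat replicate 4 was at 1.20, below the other 6 arrays of that group, which spanned 1.51 to 1.72. Each was marked because its gap to the nearest array was a large part of the range of its group. These are 2 of 24 groups of arrays tested, and chance marks about 1 in 20.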

How the results depend on the processing

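Over the other settings, 86 counts of called pumps stayed within 1.5 times the reported count and 5 did not. In DKD against Sham 4 pumps were called, with 3 to 4 when 1 array was left out, but 0 within slide 1 and 0 within slide 2, where 2 arrays per group were tested. In DKD+enarodustat against Sham 2 were called, also with any 1 array left out, but 1 with the slide row as a covariate, 0 within slide 1 and 0 within slide 2. In DKD+enarodustat against DKD 0 were called under each of 33 settings. With a replicate block the counts were 4, 0 and 2 for DKD against Sham, DKD+enarodustat against DKD and DKD+enarodustat against Sham, and the block changed no call of a pump. Of the differences of single pumps, 30 lost a call, 19 of them for Abcc3, and 2 gained one: Abcc4 in DKD+enarodustat against Sham (0.27) with the percentile taken over probes above background on all arrays, and Abcg2 there (-0.21) in the authors' value table. No called difference changed sign, which is a description, since every called pump difference is in a comparison with the Sham arrays the family was chosen on. Abcb1a in DKD+enarodustat against Sham, not called, was 1.09 with the slide row as a covariate, and Abcc2 in DKD+enarodustat against DKD was 0.10 within slide 3. The row term of that Abcb1a fit rests on the DKD arrays, and 1 of the 2 in row 2 is replicate 4, at -8.42. The cause of these shifts was not tested. Low signal limits Abcb1a, Abcb4, Abcc3 and the other probes of Abcb1b and Abcc1. Abcc3 was well above background on every array, but its means were only -5.28 in DKD+enarodustat, -5.10 in DKD and -5.58 in Sham.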
